A study of Homo sapiens with 2 samples.

Results

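Metallothioneins were examined in MDA-MB-231 cells that had received 2 Gy on each of 4 days and in untreated cells (0 Gy), with 1 microarray per condition. The line is a triple-negative human breast carcinoma line in long use. Irradiated and untreated cells alike grew in 3D in Matrigel, a laminin-rich extracellular matrix (lrECM), and the time from the last dose to the RNA was not given in the sources used here. Cy5-labelled amplified RNA from each culture was hybridised to a 1-colour oligonucleotide chip, so that each spot gave 1 brightness per sample. The members were 9 metallothionein genes (MT1A, MT1B, MT1E, MT1F, MT1G, MT1H, MT1M, MT1X and MT2A) and MTF1. They were taken as every usable gene probe that the scanner files name after one of these genes, which gave 10 probes of 24456 and 10 genes of 19372, each gene with 1 probe. The later platform annotation gave the same gene for 8 of these probes and held no usable entry for that of MT1A. It gave the probe named MT1G to LOC101927536, a long non-coding RNA on the same chromosome.

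Metallothioneins are small, cysteine-rich cytoplasmic proteins that bind zinc and copper, buffer free zinc, and take up toxic metals such as cadmium. Most human metallothionein genes stand side by side in a cluster on chromosome 16, and MT2A and several MT1 genes are read in many tissues. MTF1, the metal-responsive transcription factor, is a zinc-finger protein that senses zinc and binds metal response elements in the promoters of these genes. Glucocorticoids and oxidative stress are also known to raise metallothionein transcripts. The coding sequences of the MT1 genes are closely related, so a probe made for 1 gene may also bind the transcripts of others, and the probe sequences were not used here.

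The promoter sequences of the 4 metallothionein members that the RefSeq promoter table (GRCh38.p14) holds are shown because they carry the element through which MTF1 acts. Each is the 250 bases before the transcription start, 5′ to 3′ on the strand of the gene, which is the + strand in all of them. Capitals mark matches to the metal response element core, searched as TGCACNC and TGCGCNC on both strands.
MT1X, chr16:56682220-56682469: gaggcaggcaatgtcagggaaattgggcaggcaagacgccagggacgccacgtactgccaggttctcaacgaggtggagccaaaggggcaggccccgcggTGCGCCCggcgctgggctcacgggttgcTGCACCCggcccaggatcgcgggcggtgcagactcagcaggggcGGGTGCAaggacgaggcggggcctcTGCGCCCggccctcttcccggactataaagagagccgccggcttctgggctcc
MT2A, chr16:56608334-56608583: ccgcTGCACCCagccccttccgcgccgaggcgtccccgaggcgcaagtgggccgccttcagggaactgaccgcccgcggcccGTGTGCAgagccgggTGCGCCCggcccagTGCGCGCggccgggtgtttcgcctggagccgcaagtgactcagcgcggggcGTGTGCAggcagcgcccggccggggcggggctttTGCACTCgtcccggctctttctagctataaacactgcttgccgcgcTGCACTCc
MT1B, chr16:56651636-56651885: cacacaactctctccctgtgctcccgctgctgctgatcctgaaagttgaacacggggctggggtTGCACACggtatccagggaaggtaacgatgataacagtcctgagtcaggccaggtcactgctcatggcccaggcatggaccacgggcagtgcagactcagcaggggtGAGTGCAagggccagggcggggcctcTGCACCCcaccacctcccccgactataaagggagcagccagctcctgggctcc
MT1H, chr16:56669564-56669813: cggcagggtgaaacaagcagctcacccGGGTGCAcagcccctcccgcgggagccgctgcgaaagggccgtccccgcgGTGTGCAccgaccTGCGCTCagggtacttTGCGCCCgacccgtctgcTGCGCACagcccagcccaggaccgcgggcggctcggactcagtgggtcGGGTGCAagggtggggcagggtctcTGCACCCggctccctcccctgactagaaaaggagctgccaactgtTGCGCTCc

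MT1X had 4 matches, MT2A had 7, MT1B had 3 and MT1H had 8, and 2 or 3 of them lay within 100 bases of the start in each gene. Of 35116 promoters of this length in the table, 24.8% held at least 1 match and 1.58% held at least 3. At least as many matches as in MT1X were found in 0.37% of all promoters, at least as many as in MT2A in 0.0313%, and at least as many as in MT1H in 0.0171%. The promoter of MTF1 itself, on chromosome 1, held 0 matches in its 250 bases. A match describes the letters only and was not tested as a binding site. The table matched 5 of the 10 members.

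**Figure D1:**
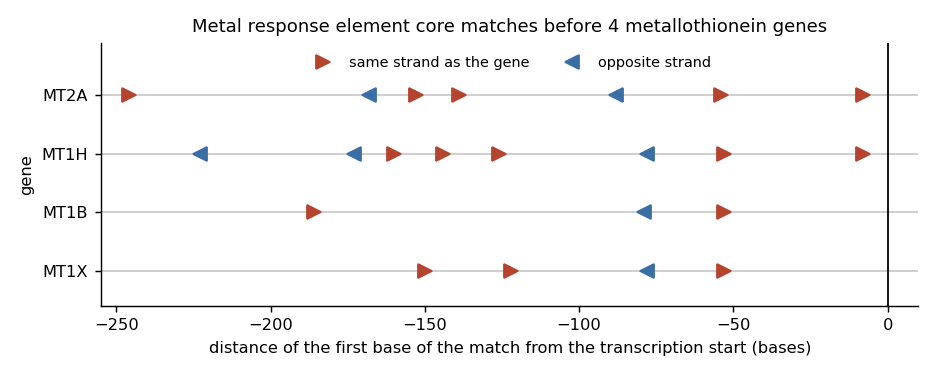
Position of each match to the metal response element core (triangles, pointing right on the strand of the gene and left on the opposite strand) in the 250 bases before the transcription start, with the distance from the start in bases on the x axis and 1 row per gene. MT2A carries 7 matches and MT1H carries 8, against 4 in MT1X and 3 in MT1B, and all 4 genes have a match on the strand of the gene 53 or 54 bases before the start.

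The level of each probe was first read against the blank spots of its own array, which carry no probe for any gene. A probe was taken as detected where its spot was brighter than the 95th percentile of the blank spots, which was 16.0 brightness units on the irradiated array and 14.2 on the untreated array. Of the 10 member probes 9 were detected on both arrays. MT1G reached this limit on neither array, with 14.3 on the irradiated and 13.9 on the untreated array, so it has no ratio. At the other end, the MT2A probe stood at 61101 on the irradiated and 62965 on the untreated array. It was the 3rd brightest gene probe of the irradiated and the 2nd brightest of the untreated array, close to the highest value of the scanner of 65535. Brightness depends on the probe as well as on the transcript, so no order of transcript levels between genes was read from it.

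**Figure D2:**
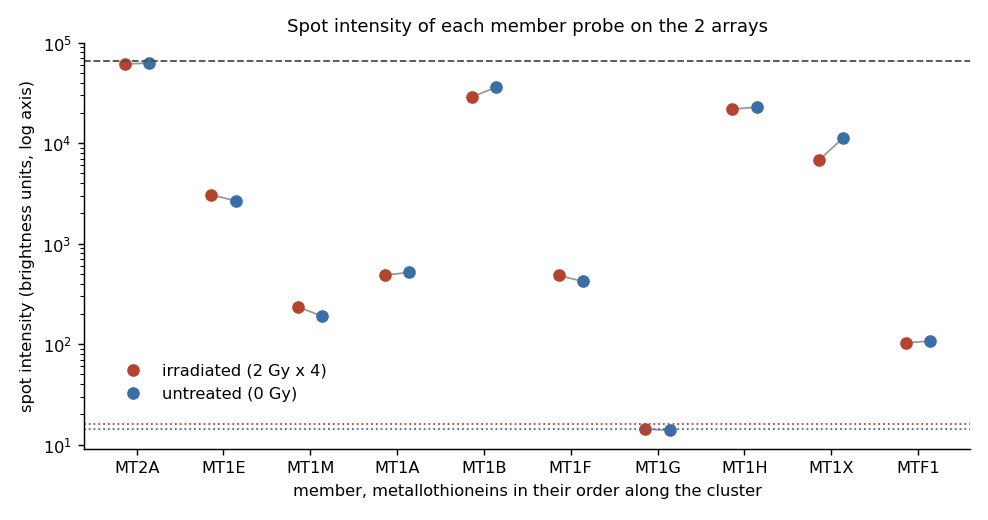
Spot intensity (brightness units, log axis) of the 10 member probes on the irradiated array (red, left) and the untreated array (blue, right), 1 point per array, with the metallothioneins in their order along the cluster and MTF1 last. Dotted lines are the detection limits of the 2 arrays (16.0 irradiated and 14.2 untreated) and the dashed line is the highest scanner value of 65535. MT1G lies at the blank spots, MT2A near the top, and MT1X shows the widest gap between the arrays.

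To compare the arrays, spot intensities were background-corrected (normexp, offset 50) and quantile-normalised, and the ratio of irradiated over untreated signal was taken. Since each condition had a single array, no replicate check and no test could be made, and a ratio was called by size alone, at 1.5-fold in either direction. In a bulk culture, fewer cells that express a gene and less RNA in each cell cannot be told apart. Of the 9 detected members 0 reached a 1.5-fold higher signal in irradiated cells and 0 a 1.5-fold lower one. Over all 22069 detected probes these shares were 0.326% higher and 1.16% lower. The ratios of the 8 detected metallothioneins ran from 0.702 for MT1X to 1.31 for MT1M, with 4 above 1 and 4 below 1. Their median log2 difference was 0.022 (SD between the genes 0.32), beside 0.014 (SD 0.19) over all 17789 detected genes. In the processed values that the authors deposited, which have the mean blank level taken off and a median of 25 on either array, again 0 members reached 1.5-fold in either direction. There 4.4% of all detected probes were higher by that much and 7.26% lower. The median log2 difference of the 8 genes was 0.16 in these values, beside 0.044 over all detected genes. With the correction for position on the chip that is described below, the median of the 8 genes in the authors' values was 0.054.

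MT1X was the member with the lowest ratio. MT1X is one of the broadly expressed and metal-inducible MT1 genes. Its spot measured 6785 on the irradiated array and 11349.8 on the untreated array. The normalised signal was 7499 on the irradiated and 10679 on the untreated array, a ratio of 0.702, and 1.79% of all detected probes had a lower ratio. In the authors' values MT1X had 3767 on the irradiated and 5445 on the untreated array, a ratio of 0.692, with 8.55% of detected probes lower. Both ratios were short of 1.5-fold. Other scalings of the arrays set MT1X just past it, with 0.646 by scaling to the median, 0.649 by scaling to the 75th percentile and 0.657 along a loess curve. In those settings 1.33%, 1.25% and 1.4% of all detected probes were at least 1.5-fold lower. The call for MT1X therefore depended on the scaling, while its ratio was below 1 in these and in the 2 settings above, and above 1 with local background subtraction (2.14).

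The MT2A probe gave no settled direction. MT2A is a widely expressed metallothionein gene and is raised by metals and glucocorticoids. The spot intensities of 61101 on the irradiated and 62965 on the untreated array differed by a ratio of 0.97 before any scaling. The quantile-normalised ratio was 0.934. At the top of the array this value is set by the rank of a probe, here 3rd on the irradiated and 2nd on the untreated array. Scaling to the median gave 1.05, the loess curve 1.08 and the authors' values 1.12, from 33983 on the irradiated and 30235 on the untreated array. So close to the scanner limit, a larger amount of transcript could add little brightness, and its part in these ratios was not tested.

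MT1B and MT1H, 2 further MT1 genes of the cluster, also had bright probes. MT1B measured 28828 on the irradiated array and 36056 on the untreated array, with a normalised ratio of 0.847 and a ratio of 0.926 in the authors' values. MT1H measured 21830.1 on the irradiated and 22814 on the untreated array. Its normalised ratio was 0.992 and its ratio in the authors' values 1.11. MT1B thus stayed below 1 in both sets of values, while MT1H had a ratio on either side of 1.

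MT1M, MT1E and MT1F had the highest normalised ratios of the family. These are functional MT1 genes, and MT1E lies next to MT1M among the members along the cluster. MT1M measured 235 on the irradiated array and 189 on the untreated array. Its normalised ratio was 1.31, above that of 98.1% of all detected probes, and its ratio in the authors' values was 1.45. MT1E measured 3057 on the irradiated and 2669 on the untreated array, with a normalised ratio of 1.29 and a ratio of 1.33 in the authors' values. MT1F measured 483 on the irradiated array and 421 on the untreated array, a normalised ratio of 1.24 and a ratio of 1.33 in the authors' values. All 3 genes were brighter on the irradiated array before any scaling and short of 1.5-fold after it.

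MT1A and MTF1 were close to 1. MT1A, another MT1 gene of the cluster, measured 486 on the irradiated and 518 on the untreated array. Its normalised ratio was 1.04 and its ratio in the authors' values 1.08. MTF1 measured 103 on the irradiated array and 107 on the untreated array, a normalised ratio of 1.05 and a ratio of 1.10 in the authors' values. The transcript of the metal sensor was measured at nearly equal brightness, in a range well above the blank spots.

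**Figure D3:**
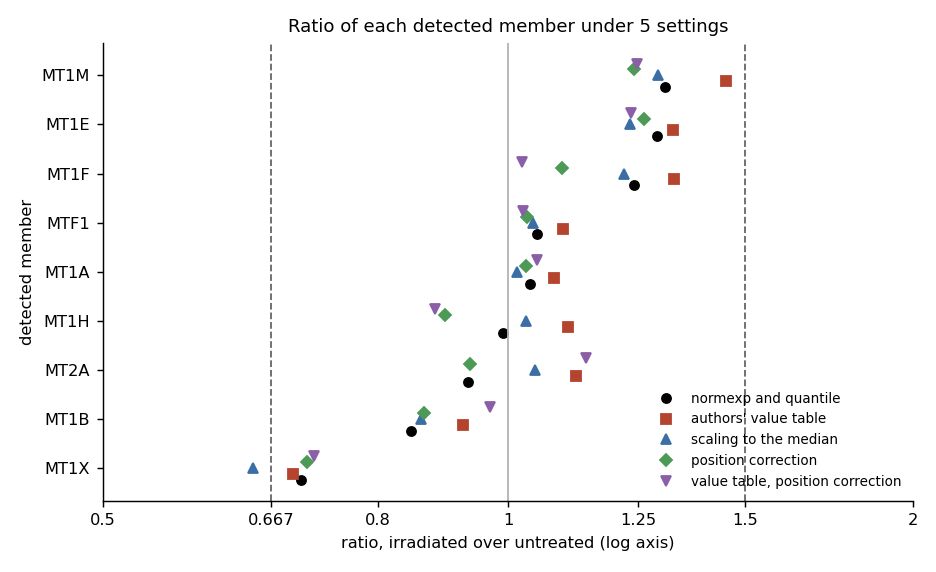
Ratio of irradiated over untreated signal (log axis) for the 9 detected members under 5 settings, 1 symbol per setting, with dashed lines at 1.5-fold lower and 1.5-fold higher. MT1X lies lowest in each setting shown and passes the lower line when the arrays are scaled to the median (0.646), MT1M, MT1E and MT1F lie above 1 in each, and MT2A and MT1H lie on both sides of 1.

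Ratios did not run in one direction along the cluster. In the order of the genes on chromosome 16, MT2A had a normalised ratio of 0.934, MT1E of 1.29, MT1M of 1.31, MT1A of 1.04, MT1B of 0.847, MT1F of 1.24, MT1H of 0.992 and MT1X of 0.702. The genes with ratios above 1.2 lay on both sides of MT1A and MT1B, and the lowest stood at the far end from MT2A.

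Position on the chip moved with the ratios over all probes. In the last 26 of 104 columns the detected probes had a median ratio of 0.936, against 1.02 in the other columns, and 85.6% of all probes at least 1.5-fold lower lay there. Of the detected metallothioneins 2 lay in those columns, MT1A in column 88 and MT1B in column 81. MT1X lay in column 73, where the detected probes within 11 rows and 8 columns had a median ratio of 0.990. This window assumes that the blocks of the chip follow each other in their numbered order, which the files do not state. With that local median taken off, MT1X had a ratio of 0.709, and 0.717 when the same was done to the authors' values. MT1F lay in column 6 among probes with a median ratio of 1.13, and its ratio was 1.10 after this correction and 1.02 in the corrected authors' values. MT1H, also in column 6, had a ratio of 0.898 after the correction and 0.883 in the corrected authors' values. MT1M and MT1E had ratios of 1.24 and 1.26 after the correction, and 1.25 and 1.23 in the corrected authors' values. In the normalised values the correction moved MT1X and MT1E less than MT1M, and MT1F the most of these 4. The part of chip position in the ratios of these and of the genes below was not tested beyond this correction.

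**Figure D4:**
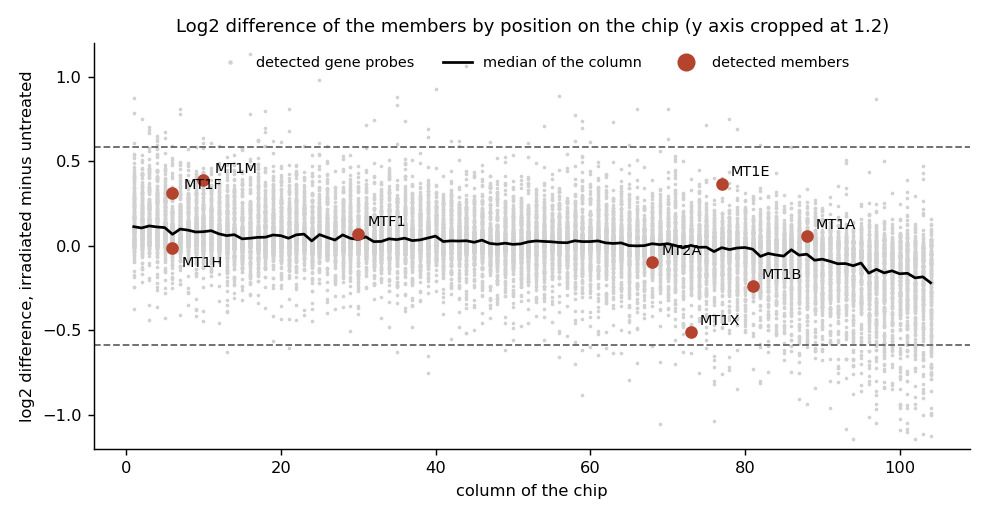
Log2 difference (irradiated minus untreated, y axis) of all detected gene probes (grey) and of the 9 detected members (red) by column of the chip (x axis), with the median of each column as a black line and dashed lines at 1.5-fold. The column median falls towards the right edge, and MT1X at column 73 and MT1E at column 77 lie below and above probes whose median is close to 0.

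The local background of a spot followed the spot intensity itself over all spots (Spearman correlation 0.928 on the irradiated and 0.943 on the untreated array, across spots that share an array). For MT1E the local background was 2647 on the irradiated and 2959 on the untreated array, the second of which is above the untreated spot of 2669. For MT1A it was 486 on the irradiated array, equal to the spot, and 415 on the untreated array. With no net signal on 1 array, neither gene has a ratio of use after this subtraction. The other members did have net signal, and subtracting the local background gave ratios of 2.14 for MT1X and 0.423 for MT1H, both past 1.5-fold, 1.36 for MT1M, 1.10 for MT2A and 0.785 for MT1F. MT1X, MT2A and MT1F then lay on the other side of 1.

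Further metallothionein probes were read beside the members. MT3, the brain-type metallothionein, measured 409 on the irradiated array and 430.2 on the untreated array, with a normalised ratio of 1.04. MT4, known from squamous epithelium, stood at 15.9 on the irradiated array, short of the detection limit, and at 17.0 on the untreated array, above it. The pseudogene MT1DP measured 16.9 on the irradiated and 15.4 on the untreated array, just above the blank spots. Probes of metallothionein copies outside the cluster were also bright. MT1HL1 measured 36496 on the irradiated and 46412 on the untreated array (ratio 0.877). MT1P3 measured 35136 on the irradiated and 39940 on the untreated array (ratio 1, and 1.02 in the authors' values). Its probe ranked 15th in brightness on both arrays, and quantile normalization sets such a ratio to 1. The spots themselves had a ratio of 0.880, and scaling to the median gave 0.949. MT2P1 measured 41998 on the irradiated and 41549 on the untreated array (ratio 1.13). The directions of MT3, MT2P1 and MT1P3 were not settled. The position correction gave 0.962 for MT3, 0.992 for MT2P1 and 0.969 for MT1P3. In the corrected authors' values they had 0.907, 0.893 and 0.925. Local background subtraction gave 1.66 for MT2P1 and 0.334 for MT1P3, both past 1.5-fold. It gave 0.855 for MT3 and 1 for MT1HL1. MT1P3 and MT2P1 were on no list and were added after their values had been seen. Binding of cluster transcripts to these probes, and of one cluster transcript to the probe of another, was not tested.

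Genes that handle zinc and other metals were described from lists of metal biology. Zinc transporters of the SLC30 family move zinc out of the cytosol and those of the SLC39 family move it in. Of 24 listed genes 23 were detected, with 0 called higher, 1 called lower and a median log2 difference of 0.042. Over all detected genes 0.304% were called higher and 1.01% lower. SLC30A1, the zinc exporter that MTF1 is known from mouse cells to switch on together with metallothioneins, measured 79.8 on the irradiated and 80.2 on the untreated array and had a ratio of 1.07. SLC39A6 had 141 on the irradiated array and 324 on the untreated array, a ratio of 0.538. Its probe lay in column 102, and its ratio was 0.661 with the local median taken off and 0.777 in the corrected authors' values. SLC39A10, a zinc importer that MTF1 is known from mouse cells to repress, had a ratio of 1.27, SLC39A5 of 0.747 and SLC39A1 of 0.788, the last 2 from columns 92 and 96. SLC39A5 was past 1.5-fold lower in the authors' values, at 0.528, but just short of it in the corrected ones, at 0.669. SLC39A1 had no settled direction, with 1.06 in the corrected authors' values.

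Of 19 genes of copper and iron handling, all detected, 1 was called higher, 1 was called lower, and the median log2 difference was -0.00056. TFRC, the transferrin receptor that brings in iron, measured 987 on the irradiated and 615 on the untreated array, a ratio of 1.72. Its probe lay in column 1, and its ratio was 1.58 with the local median taken off and 1.49 in the corrected authors' values. Local background subtraction gave 1.42 for TFRC, short of 1.5-fold. ACO1, which encodes the iron regulatory protein IRP1, had a ratio of 0.584 over 2 probes that differed, at 0.806 in column 47 and 0.423 in column 103. With local background subtraction ACO1 had 0.678, also short of 1.5-fold. FTH1, the heavy chain of ferritin, had 36960.0 on the irradiated and 55179 on the untreated array, a ratio of 0.699 from column 85, and 0.963 in the corrected authors' values. SOD1, the copper and zinc superoxide dismutase, had a ratio of 0.764, and of 0.457 with local background subtraction, past 1.5-fold lower.

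Of 15 stress genes known to be raised by heavy metals, 0 reached 1.5-fold in either direction and the median log2 difference was -0.058. GADD45A, a growth arrest gene, had a normalised ratio of 1.30, DNAJB1, a heat shock co-chaperone, one of 1.24, HSPA1B, an inducible HSP70, one of 0.772, and GCLC, which encodes the catalytic subunit of glutamate-cysteine ligase in glutathione synthesis, one of 0.825. In the corrected authors' values GADD45A had a ratio of 1.02 and that of DNAJB1 differed from 1 by less than 0.01. Local background subtraction turned DNAJB1 to 0.732 and HSPA1B to 1.26, and set GADD45A past 1.5-fold higher, at 1.70. Genes that flank the metallothionein cluster were detected in 11 of 13 cases, with 0 at 1.5-fold and a median log2 difference of 0.051. In the authors' values 1 of them, NUDT21, was past 1.5-fold lower at 0.647, as were 1154 of all 17789 detected genes. The median of the flanking genes was 0.30 there, beside 0.044 over all detected genes. In the corrected authors' values this median was 0.045 and NUDT21 had a ratio of 0.726, short of 1.5-fold. In the main values NUDT21, a pre-mRNA 3′ end processing factor, had a ratio of 0.684 from column 93. HERPUD1, an endoplasmic reticulum stress gene, had 0.815 from column 86. BBS2, a subunit of the BBSome, had 1.16, or 0.677 with local background subtraction.

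**Figure D5:**
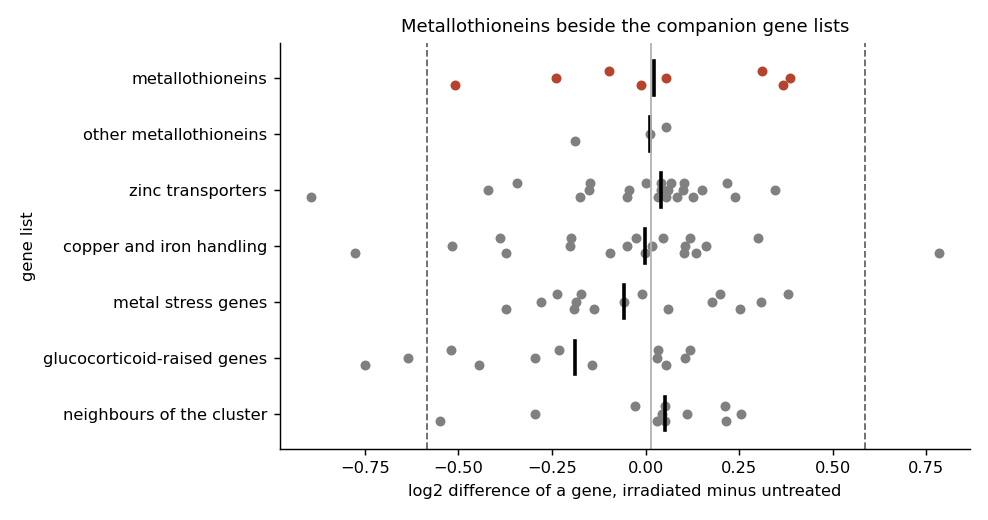
Log2 difference (irradiated minus untreated) of each detected gene in the metallothionein family (red) and in the companion lists (grey), with a black bar at the median of each list, a grey line at the median of all detected genes and dashed lines at 1.5-fold. The metallothioneins have a median of 0.022 and spread to both sides of 0, and the glucocorticoid-raised genes have a median of -0.19.

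As a check of the line, the markers taken as present were above the blank spots on both arrays, while those taken as low were only in part below them. VIM, the mesenchymal intermediate filament, had 3 probes, at 26732, 600 and 25.4 on the irradiated and 28208, 697 and 29.7 on the untreated array. The probe of the estrogen receptor gene ESR1 was above the detection limit on neither array. For the progesterone receptor gene PGR, no probe was above the limit on the irradiated array. One PGR probe stood just above it on the untreated array, at 14.7 against 14.2, and the other was below it. Against the marker list, the epithelial genes CDH1, EPCAM and KRT18 and the receptor gene ERBB2 were all above the blank spots. The brightest KRT18 probe stood at 5415 on the irradiated and 6416 on the untreated array, where it was brighter than 98.9% of gene probes. CDH1, the gene of E-cadherin, stood at 155 on the irradiated and 179 on the untreated array, EPCAM in its brighter probe at 203 on the irradiated and 198 on the untreated array, and ERBB2 at 70.9 on the irradiated and 70.1 on the untreated array. Over the whole chip 91.5% of gene probes on the irradiated and 93.4% on the untreated array were above the blank spots.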

How the data were processed

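MDA-MB-231 cells in 3D lrECM were measured on 1 array after 2 Gy on each of 4 days and on 1 untreated array. For each array the authors deposited a scanner file, whose values are median spot intensities (635 nm) without background subtraction or scaling between arrays, and a table of processed intensities. How that table was made was not given in the sources used here. Its intensities above 10 equalled the spot less the trimmed mean of the blank spots (middle 90%), scaled to a median of 25, within 0.487% on the irradiated and 0.412% on the untreated array. The scanner worked with 3 gains. Whole-number values were held by 21 gene probes on the irradiated and 33 on the untreated array, the bright ones from 32405 and 30032 upward. MT1B lay below this level on the irradiated array and above it on the untreated array. The part of the gains in its ratio and in those of other bright probes was not tested.

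Spots flagged as poor, blank spots and controls were left out of the ratios. Normexp correction (offset 50) was fitted on all spots and quantile normalization was run over 24456 gene probes with limma 3.58.1 in R 4.3.3. Further steps used Python 3.11.15 with numpy 2.4.6, pandas 2.3.3 and matplotlib 3.10.9. Probes were named from the platform annotation through Entrez identifiers (21703) or from the scanner name (965), with the GRCh38.p14 RefSeq gene table, and 1788 stayed unnamed. The build used by the chip is not named, so coordinates are given for the RefSeq promoters only. Probes of a gene detected on both arrays were averaged on the log2 scale. For the position correction, the median over detected neighbours up to 11 rows and 8 columns away was subtracted from each log2 difference, on the assumption, which the files do not state, that the blocks of the chip are stacked in their numbered order.

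No test was possible with 1 array per group, and precision is limited by the number of arrays. The steps were tested on simulated data made from the untreated array, with no trend across the chip and no scanner ceiling. Recovery of the set ratios was required only of bright probes. The simulation therefore does not cover dim probes, the column trend or the MT2A probe near the scanner limit. The members and gene lists were chosen with earlier results of these data known. The text names all members, the 4 genes with the largest differences of each list, SLC30A1 and markers of the line, except 1 gene that is not reported here. The processing choices tried are given in the closing section.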

Additional observations from a re-analysis of the deposited data

How the results depend on the processing

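No paired analysis was possible because each group holds 1 array, and for the same reason no array could be left out. Of the 9 detected members, 0 reached 1.5-fold in either direction with quantile normalization and offset 50 (the main values). The count lower was 1, MT1X, with scaling to the median, scaling to the 75th percentile and the loess curve. With local background subtraction 2 were higher, MT1E and MT1X, and 2 lower, MT1A and MT1H. Over all 17789 detected genes that setting gave 465 higher and 588 lower. MT1E (untreated) and MT1A (irradiated) had no net signal on 1 array, so that these 2 calls carry no weight. All other settings gave 0 and 0. Scaling to the median, to the 75th percentile, the loess curve and the authors' value table put MT1H (1.03, 1.04, 1.06 and 1.11) and MT2A (1.05, 1.05, 1.08 and 1.12) above 1, against 0.992 and 0.934 in the main values. Local background subtraction turned 4 members (MT1X, MT1A, MT1F and MT2A), and the value table with position correction turned MT2A alone (1.14). The median log2 difference of the metallothioneins ranged from -0.025 with the position correction to 0.16 in the authors' value table. It was -0.011 over the members that the platform annotation gives to 1 gene, and 0.033 as a mean.

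Among all detected genes, the main values held 54 that were called higher and 180 called lower. Skipping background correction gave 143 higher and 435 lower, offset 0 gave 398 and 823, and subtracting the local background gave 465 and 588. The authors' value table gave 704 higher and 1154 lower, or 529 and 651 once corrected for position. Position correction of the main values gave 39 higher and 79 lower, and a 2-fold limit gave 3 and 18. The causes of these differences were not tested. An offset of 50 draws the ratios of dim probes towards 1, and with offset 0 MT1M had a ratio of 1.40, MT1F of 1.27 and MTF1 of 1.08.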

Other observations

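Genes known to be raised by glucocorticoids, which also act on MT2A and MT1X, had the lowest median of the companion lists in the quantile-normalised values. The order depended on the processing, since in the position-corrected authors' values their median was -0.13, beside -0.14 for the metal stress genes and -0.14 for the other metallothioneins. All 12 were detected, 5 with a ratio above 1 and 7 below, 2 of them at least 1.5-fold lower, with a median log2 difference of -0.19, beside 0.014 over all detected genes, of which 1.01% were at least 1.5-fold lower. TSC22D3, which encodes the glucocorticoid-induced leucine zipper, measured 4497 on the irradiated array and 8769 on the untreated array, a ratio of 0.595. Its probe lay in column 39, and its ratio was 0.598 with the local median taken off, 0.593 in the authors' values and 0.635 with local background subtraction. ZBTB16, a zinc-finger repressor, measured 194 on the irradiated and 353 on the untreated array, a ratio of 0.644, with 0.612 in the authors' values. KLF9, a Krüppel-like factor, had a ratio of 0.698 and ERRFI1, an inhibitor of EGFR signalling, of 0.735, though local background subtraction gave 1.28 for ERRFI1. Some genes were named after their values had been seen. FKBP5, a co-chaperone of the glucocorticoid receptor, stood at 1.04, DUSP1 at 1.07 and NFKBIA at 1.09. In these normalised values the genes of the list were thus not lower as a whole. FKBP5 and DUSP1 had no settled direction. Scaling to the median gave 0.942 for FKBP5. DUSP1 had 0.930 in the corrected authors' values and 0.452 with local background subtraction. The normalised ratio of MT1X, 0.702, lay among those of the lower genes of the list. That of MT2A, 0.934 near the scanner limit, did not. The ratios of MT1M (1.31), MT1E (1.29) and MT1F (1.24) lay above the highest of the list, 1.09 for NFKBIA. With local background subtraction MT1X had a ratio of 2.14. A part of glucocorticoids in these ratios was not tested.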
